A study of Caenorhabditis elegans with 11 samples.

Results

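The genes described here are the neuropeptide and insulin-like peptide genes of *C. elegans*, taken as every row of the count table whose WormBase symbol begins with flp-, nlp- or ins-. There were 140 such genes among the 46772 rows, of which 31 were *flp*, 71 were *nlp* and 38 were *ins* genes, and all 140 were annotated as protein-coding. RNA was sequenced from early embryos that were released from young adults by hypochlorite treatment and frozen. The wild-type strain N2 was compared with strains carrying *cfp-1(tm6369)*, *set-2(bn129)* or *sin-3(tm1276)*, with no drug or other treatment in any group. CFP-1 and SET-2 are subunits of the COMPASS complex, which methylates lysine 4 of histone H3, and SIN-3 is the scaffold of a histone deacetylase complex. Wild-type, *cfp-1* and *set-2* had 3 libraries each and *sin-3* had 2, described as independent biological replicates. Each mutant is represented by a single allele, and the sources used here do not say whether the embryos came from homozygous or balanced mothers.

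Neuropeptides and insulin-like peptides are made as longer precursors that pass through the secretory pathway, are cut out by proprotein convertases and, in many cases, are trimmed and amidated before release from dense core vesicles. FLP peptides end in an RFamide-type motif, the NLP group gathers other neuropeptide precursors of many families, and the INS peptides act on the insulin receptor DAF-2. In larvae and adults these genes are known mainly from neurons, with some expressed in the epidermis and intestine. Most terminal neurons have not yet formed in early embryos.

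Library totals lay between 21596949 and 35258557 counts. Each targeted gene was lower in its own mutant by edgeR's quasi-likelihood test, with p-values adjusted over all tested genes by the method of Benjamini and Hochberg: *cfp-1* by a log2 fold change of -1.56 (SE 0.13, adjusted p = 2.88e-05), *set-2* by -1.53 (SE 0.20, adjusted p = 0.000901) and *sin-3* by -1.17 (SE 0.16, adjusted p = 0.000721). As for the labelled tissue, none of 10 maternal and 12 early zygotic marker genes was at 0 in every library of a strain. The summed level of the maternal markers, in counts scaled to the library total after correction by the trimmed mean of M values (CPM; TMM), was 3966 to 4892 in wild-type, 5950 to 6578 in *cfp-1*, 3668 to 4499 in *set-2* and 7171 to 7191 in *sin-3*. The summed zygotic markers were at 425 to 446 CPM in wild-type, 271 to 351 in *cfp-1*, 385 to 503 in *set-2* and 261 to 279 in *sin-3*. *set-2* replicate 2 stood apart, with the highest summed epidermal (739 CPM) and muscle (779 CPM) markers of all libraries. Wild-type replicate 1 was next, at 535 CPM for epidermis and 520 for muscle, against 362 and 403 and against 320 and 363 in the other wild-type libraries. The part of embryo stage in the peptide gene results below was not tested.

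Most peptide genes had low counts in these embryos. No count was found in any library for 13 of the 140 genes, and 39 had 3 counts or fewer in every library. Another 39 had more than 3 counts in every library. The remainder were above that limit in some libraries only. A limit of 3 counts covers counting error only. The mean normalized count over the 11 libraries (counts scaled by TMM) was above 10 for 42 genes, which were tested: 10 *flp*, 24 *nlp* and 8 *ins* genes. This is 30% of the peptide genes, against 58.6% of all protein-coding genes. Of the genes nearest to that threshold, *flp-21* was inside it with a mean normalized count of 10.2 and *flp-22* outside it with 9.59.

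The number of peptide genes with more than 3 counts in at least 1 library was 74 for wild-type, 89 for *cfp-1*, 90 for *set-2* and 69 for *sin-3*. Since *sin-3* had fewer libraries, the counts for single libraries are the fairer comparison. The 3 wild-type libraries held 58, 67 and 60 detected peptide genes. The *cfp-1* libraries held 79, 66 and 73, the *set-2* libraries 77, 74 and 74, and the *sin-3* libraries 55 and 64. All 3 *set-2* libraries were above every wild-type library, whereas *cfp-1* replicate 2 and *sin-3* replicate 2 fell within the wild-type range and *sin-3* replicate 1 below it. At a limit of 0.2 CPM in place of 3 counts, the wild-type libraries held 48, 51 and 49 genes, the *cfp-1* libraries 61, 57 and 59, the *set-2* libraries 61, 62 and 56, and the *sin-3* libraries 50 and 54. At that limit all *cfp-1* and *set-2* libraries and *sin-3* replicate 2 were above the wild-type range. No test was made of these numbers, and the share of all genes detected in each library was not computed. The differences therefore cannot be read as particular to peptide genes. By class, 21 *flp*, 41 *nlp* and 12 *ins* genes were detected in at least 1 wild-type library. The corresponding numbers were 24, 47 and 18 for *cfp-1*, 23, 51 and 16 for *set-2*, and 18, 36 and 15 for *sin-3*.

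**Figure D1:**
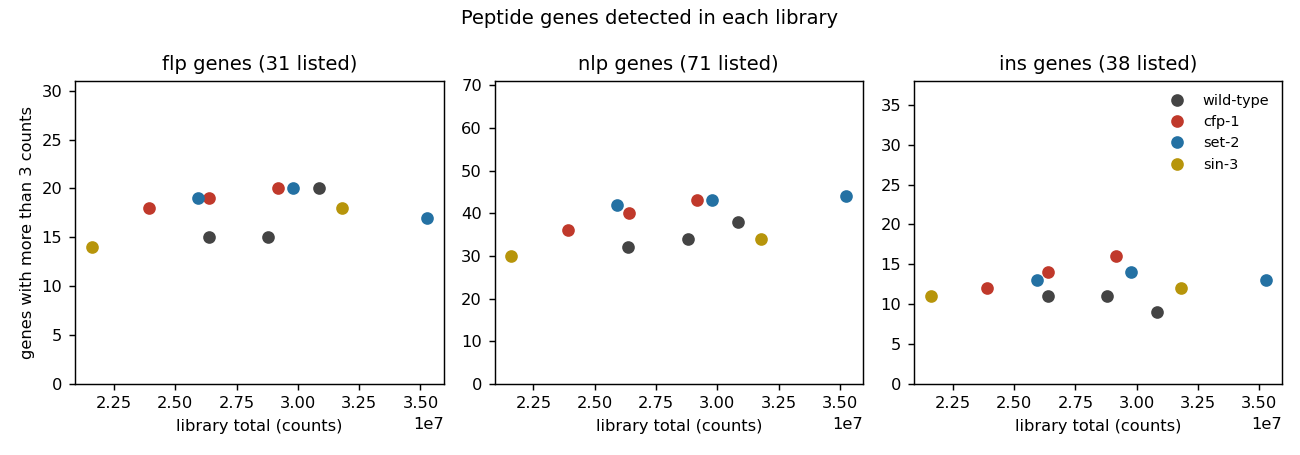
Number of *flp*, *nlp* and *ins* genes with more than 3 counts (y axis) against the library total in counts (x axis), 1 point for each library and coloured by strain. *sin-3* replicate 1 is the shallowest library (21596949 counts) and has the fewest detected genes, 55 over the 3 classes, and *set-2* replicate 3 the deepest (35258557 counts), with 74.

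A few genes carried most of the signal. Per kilobase of exon, *nlp-31* was the highest of all, at 123.6 CPM per kb (SD 16.6 over 11 libraries), followed by *nlp-36* at 74.7 (SD 10.3) and *ins-34* at 54.6 (SD 15.9). *nlp-31* lies in a group of genes known for antimicrobial peptides of the epidermis. *ins-2* was at 24.4 CPM per kb (SD 8.86), *nlp-52* at 12.4 (SD 2.39) and *ins-30* at 11.2. The *flp* genes were far lower, led by *flp-10* at 5.65 CPM per kb (SD 1.06), *flp-15* at 2.33 (SD 0.72) and *flp-27* at 1.97 (SD 1.19). FLP-10 is known to inhibit egg laying through the receptor EGL-6, and FLP-15 is a ligand of the receptor NPR-3. The top member held 28.4% of the CPM summed over all peptide genes, the top 3 held 55.9% and the top 10 held 77.8%.

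**Figure D2:**
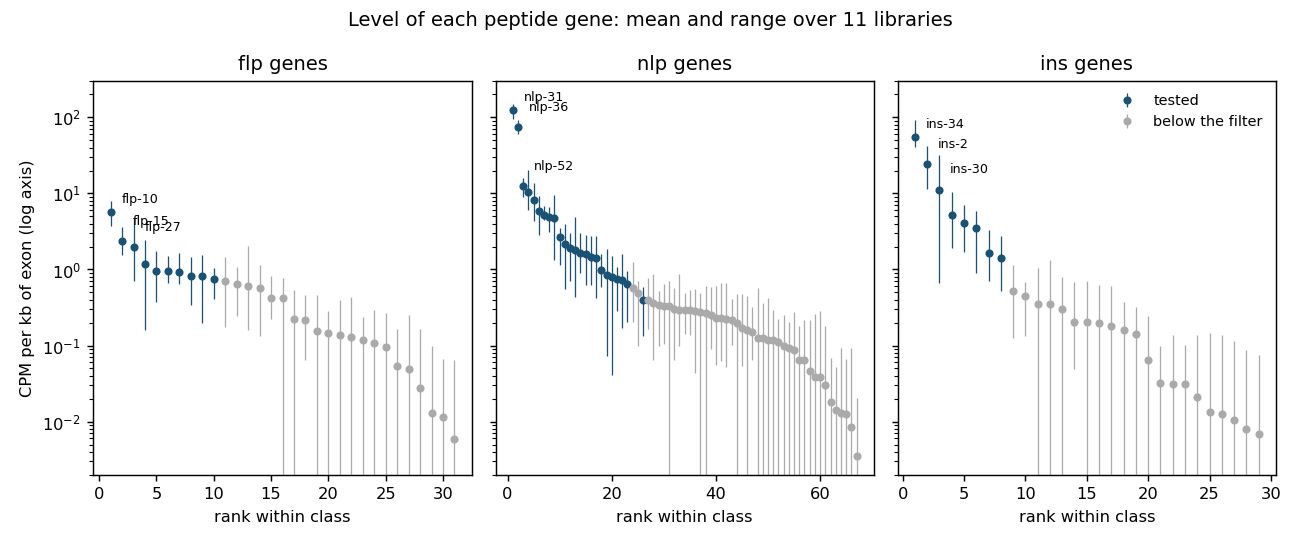
Level of each *flp*, *nlp* and *ins* gene that had at least 1 count, as CPM per kb of exon on a log axis, ranked within its class. Points are means and bars the lowest and highest of the 11 libraries, and bars of genes with a library at 0 run to the bottom of the axis. The highest genes are *nlp-31* (123.6), *nlp-36* (74.7) and *ins-34* (54.6), and grey genes fell below the filter.

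*flp* genes summed to 11.5 CPM ± 1.35 in wild-type, 14.0 ± 0.70 in *cfp-1*, 15.8 ± 1.45 in *set-2* (SD, n = 3 each) and 10.6 ± 0.13 in *sin-3* (SD, n = 2). Every *cfp-1* and *set-2* library lay above the highest wild-type library, at 13.04 CPM. The rise was uneven over the class. Mean normalized counts of *flp-18* were 7.998 for wild-type, 34.7 for *cfp-1* and 54.7 for *set-2*. Those of *flp-27* were 16.7, 31.1 and 51.7. The highest *flp* gene, *flp-10*, went the other way, with 120.6, 106.0 and 111.0. Over the 10 tested *flp* genes the median log2 fold change was 0.16 for *cfp-1* and 0.57 for *set-2*. In *set-2* the tested muscle and epidermal markers also had median log2 fold changes of 1.01 and 0.63, and their part in the *flp* sum was not tested. For *nlp* genes the sums were 121.8 ± 9.04, 120.9 ± 4.98, 132.2 ± 3.42 and 108.5 ± 9.20 CPM, and only *sin-3* lay wholly outside the wild-type range, below it. The *ins* genes summed to 51.7 ± 4.34 CPM in wild-type, 70.0 ± 6.17 for *cfp-1*, 60.9 ± 10.6 for *set-2* and 61.4 ± 6.27 for *sin-3*. All 3 *cfp-1* and both *sin-3* libraries exceeded the highest wild-type library (56.6 CPM), while 2 of the 3 *set-2* libraries did not. In *cfp-1* replicate 1, *ins-34* alone made up 62.8% of the *ins* sum, against 34.4% and 39.5% in the other *cfp-1* libraries.

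**Figure D3:**
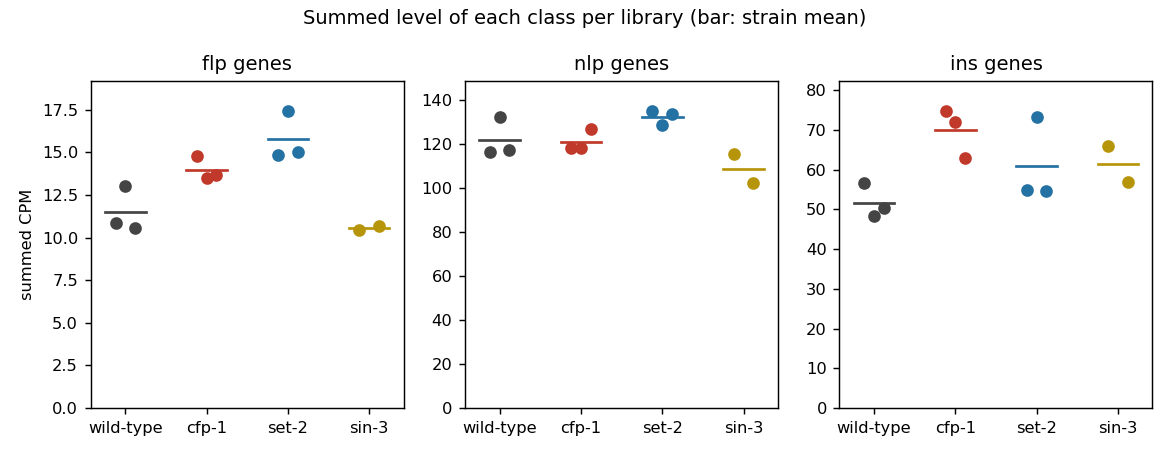
Summed CPM of all *flp*, *nlp* and *ins* genes in each library (points) with the strain mean (bars), y axes from 0. The *flp* sums of *cfp-1* and *set-2* lie above the wild-type libraries, and the *nlp* sums of *sin-3* below them.

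The 3 mutants were then compared with the same 3 wild-type libraries, gene by gene, so that the comparisons are not independent of each other. In *cfp-1* mutants, 4 of the 42 tested peptide genes were upregulated and 1 was downregulated at an adjusted p under 0.05, against 12.7% and 11.4% of all 11547 tested genes. In *set-2* mutants 4 were upregulated and 3 downregulated, against 7.40% and 7.04% of all genes. In *sin-3* mutants 2 were upregulated and 5 downregulated, against 12.6% in each direction. Taken in either direction the called peptide genes were 5, 7 and 7 (11.9%, 16.7% and 16.7% of the 42), where the shares of all tested genes were 24.0%, 14.4% and 25.2%. The peptide genes were called at shares below those of all genes in *cfp-1* and *sin-3*, and near that of all genes in *set-2*. The comparison was not matched for count level. Some tested peptide genes lay just above the filter, such as *nlp-12* (mean normalized count 12.0), *nlp-4* (11.6), *nlp-14* (11.3) and *flp-21* (10.2). The lower shares therefore do not show that peptide genes were less affected. Over the 42 genes the median log2 fold change was 0.32 for *cfp-1*, 0.29 for *set-2* and -0.20 for *sin-3*, beside medians of 0.00, -0.02 and -0.03 over all tested genes. In these bulk samples, fewer cells of a type and less RNA per cell cannot be told apart.

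Altogether 12 peptide genes were called in at least 1 mutant, 7 of them in 1 mutant, 3 in 2 and 2 in all 3. The other 30 tested peptide genes were called in none, with log2 fold changes of -0.71 to 1.28 in *cfp-1*, -1.40 to 1.59 in *set-2* and -1.45 to 1.37 in *sin-3*. The same tally over mutants was not made for all tested genes. It therefore cannot be read as particular to peptide genes. For each of the 19 calls against wild-type, no library of the mutant overlapped the wild-type libraries. Genes that were not called could be separated in the same way, as *ins-34* was in all 3 mutants. Such separation was not counted over all tested genes and is no further support for the calls.

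**Figure D4:**
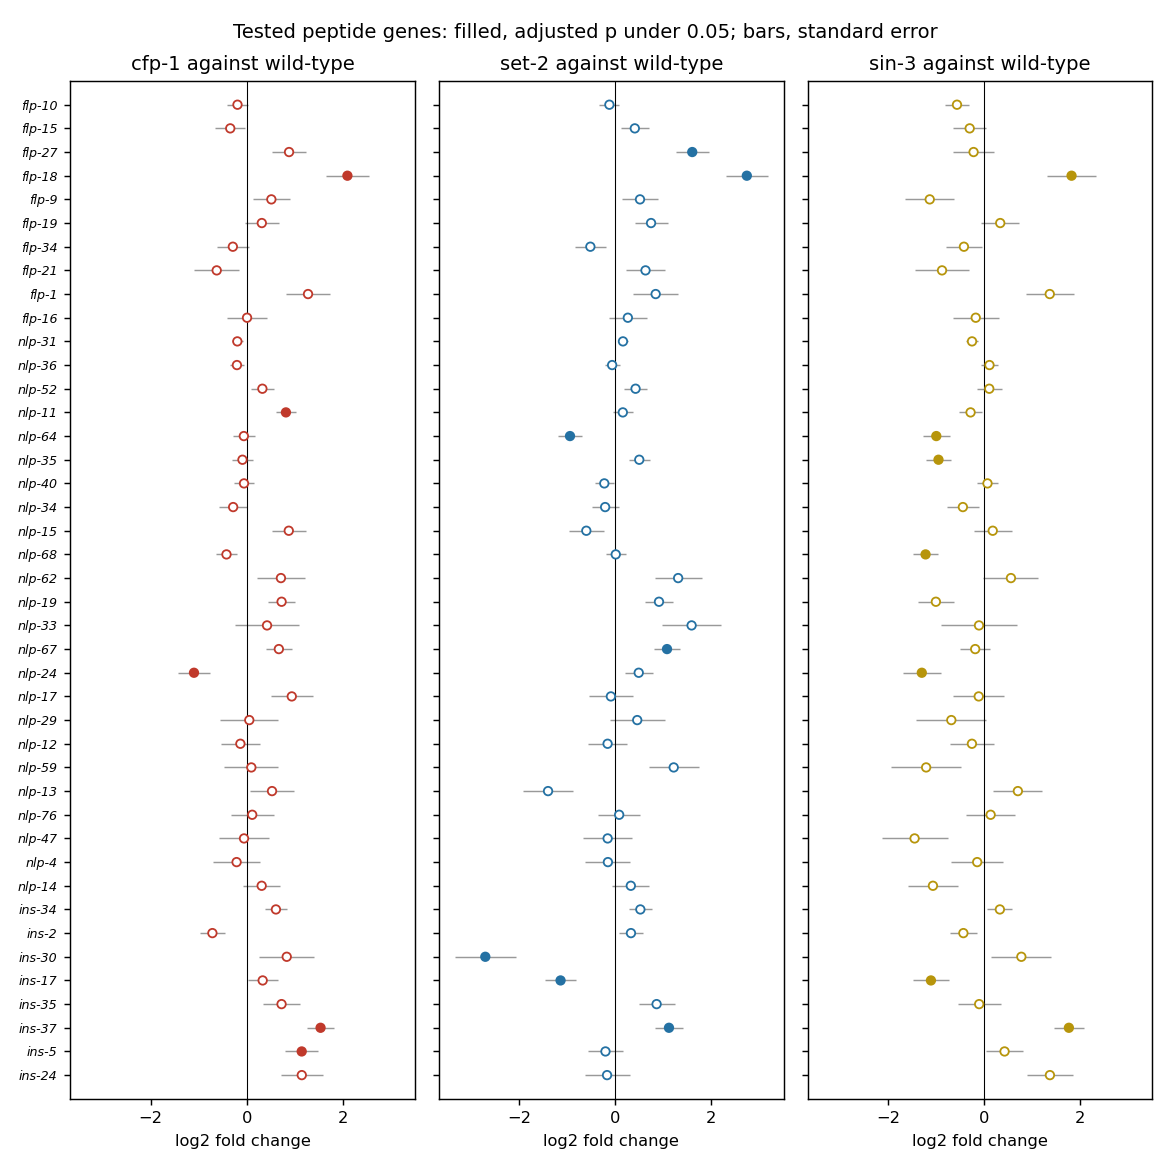
Log2 fold change against wild-type (x axis, points) with its standard error (bars) for the 42 tested peptide genes in each mutant, ordered by class and by level within it. Filled points passed an adjusted p of 0.05 in edgeR's quasi-likelihood test, which is the case for 5 genes of *cfp-1* and for 7 of *set-2* and of *sin-3* alike.

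Among the *flp* genes, *flp-18* was upregulated in all 3 mutants. It encodes peptide ligands of the receptors NPR-4 and NPR-5 in the control of feeding and movement. Normalized counts were 4.28, 11.4 and 8.34 in wild-type, 51.6, 16.7 and 35.8 in *cfp-1*, 43.8, 53.6 and 66.6 in *set-2*, with 32.9 and 25.4 in *sin-3*. Even the lowest mutant library was above the highest wild-type library. The wild-type mean of 7.998 was under the filter of 10, so that *flp-18* entered the test through its mutant libraries. The log2 fold change was 2.10 in *cfp-1* (SE 0.45, edgeR adjusted p = 0.00675), 2.74 in *set-2* (SE 0.44, adjusted p = 0.00292) and 1.82 in *sin-3* (SE 0.50, adjusted p = 0.0212). These correspond to 4.29-, 6.69- and 3.54-fold higher levels. The *sin-3* call was lost without wild-type replicate 1, wild-type replicate 3 or either *sin-3* library, where the edgeR adjusted p reached 0.124. The gene lies on chromosome X, at chrX:3012182-3018555 on the minus strand of WBcel235.

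*flp-27*, another RFamide-type precursor gene, passed the test in *set-2* mutants. Its normalized counts were 10.7, 21.8 and 17.7 in wild-type, 38.4, 28.7 and 26.1 in *cfp-1*, 39.5, 72.5 and 43.2 in *set-2*, with 13.7 and 15.1 in *sin-3*. The highest was *set-2* replicate 2, the library with the high epidermal and muscle markers. The log2 fold change in *set-2* was 1.60 (SE 0.34, edgeR adjusted p = 0.0104) and the call held without any single library. In *cfp-1* it was 0.89 (SE 0.35, adjusted p = 0.0871). *set-2* also differed from *sin-3*, by 1.82 on the log2 scale (SE 0.41, edgeR adjusted p = 0.00518). *flp-10* and *flp-15*, the highest *flp* genes, passed the test in no mutant, with log2 fold changes of -0.56 to -0.12 and -0.34 to 0.41.

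Among the *ins* genes, *ins-37* was upregulated in all 3 mutants. Normalized counts were 23.6, 46.5 and 53.1 in wild-type, 141.6, 88.5 and 129.2 in *cfp-1*, 84.1, 93.5 and 90.9 in *set-2*, with 156.3 and 125.3 in *sin-3*. All 8 mutant libraries were above the wild-type libraries. The log2 fold changes were 1.54 in *cfp-1* (SE 0.29, edgeR adjusted p = 0.00346), 1.12 in *set-2* (SE 0.29, adjusted p = 0.0252) and 1.77 in *sin-3* (SE 0.31, adjusted p = 0.00253). Without wild-type replicate 2 or *set-2* replicate 1 the *set-2* call was lost, with an edgeR adjusted p of up to 0.0553. *ins-37* lies at chrII:13835101-13836107 on the minus strand, and 171 of its 955 exon bases are shared with a small nuclear RNA gene on the same strand that had 1 to 12 counts.

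*ins-30* was downregulated in *set-2* mutants. Its normalized counts were 228.1, 138.4 and 198.0 in wild-type, 68.5, 590.8 and 351.8 in *cfp-1*, 27.5, 12.6 and 43.9 in *set-2*, with 385.3 and 261.0 in *sin-3*. The *set-2* libraries were below all others. The *cfp-1* libraries spread on both sides of wild-type. The log2 fold change in *set-2* was -2.71 (SE 0.64, edgeR adjusted p = 0.0168), a 6.54-fold lower level, and the call was lost without wild-type replicate 3 or *set-2* replicate 1, with an adjusted p of up to 0.0635. In *cfp-1* the log2 fold change was 0.84 (SE 0.57, edgeR adjusted p = 0.306), and without *cfp-1* replicate 1 it was 1.33 with an adjusted p of 0.0318. In both *cfp-1* and *set-2*, the library with the lowest *ins-30* (replicate 1 and replicate 2) was the one with the highest summed zygotic markers of its strain, at 351 and 503 CPM. In wild-type and *sin-3* the library with the highest zygotic markers had the highest *ins-30*, and the part of embryo stage was not tested.

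*ins-30* sits in a cluster of 7 *ins* genes within 25409 bp of chromosome I, described here because of the values of its members. *ins-28*, *ins-29* and *ins-25* had no count in any library, *ins-27* had at most 2, and *ins-26* had 0 to 14. Its other tested member, *ins-24*, had normalized counts of 7.498, 14.2 and 12.5 in wild-type, 15.9, 31.1 and 30.4 in *cfp-1*, 7.73, 16.8 and 6.81 in *set-2*, with 37.02 and 23.6 in *sin-3*. Both tested genes of the cluster were higher in *cfp-1* than in *set-2*, *ins-30* by 3.55 on the log2 scale (SE 0.65, edgeR adjusted p = 0.00442) and *ins-24* by 1.32 (SE 0.44, adjusted p = 0.0485), although the *ins-24* libraries of the 2 strains overlapped. Both were also lower in *set-2* than in *sin-3*, by -3.49 (SE 0.68, edgeR adjusted p = 0.00276) and -1.55 (SE 0.47, adjusted p = 0.0233). The 2 protein-coding genes that lie between the cluster's members were below the filter.

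*ins-17*, whose product is known to favour the dauer larva, was downregulated in *set-2* and *sin-3*. It had normalized counts of 64.3, 110.0 and 114.6 in wild-type, 100.3, 102.8 and 161.8 in *cfp-1*, 42.1, 29.4 and 58.3 in *set-2*, with 53.5 and 36.7 in *sin-3*. The highest *set-2* library (58.3) was close to the lowest wild-type library (64.3). The log2 fold changes were -1.14 in *set-2* (SE 0.32, edgeR adjusted p = 0.0362) and -1.11 in *sin-3* (SE 0.38, adjusted p = 0.0497). Both calls were near the threshold. The *set-2* call was lost without wild-type replicate 2 or 3, *set-2* replicate 1 or 2, or *sin-3* replicate 1, and the *sin-3* call without wild-type replicate 2 or 3, *cfp-1* replicate 1 or 2, *set-2* replicate 1 or either *sin-3* library, with an edgeR adjusted p of up to 0.138 and 0.298. The *set-2* call was also lost with only the 2 strains compared in the fit, and the *sin-3* call with DESeq2's size factors and with the replicate block. *cfp-1* was higher than *set-2* by 1.48 (SE 0.32, edgeR adjusted p = 0.0098) and higher than *sin-3* by 1.44 (SE 0.38, adjusted p = 0.0311).

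*ins-5*, which lies in a cluster of 6 *ins* genes on chromosome II together with *ins-2*, was upregulated in *cfp-1* mutants. Normalized counts were 20.4, 25.6 and 41.7 in wild-type, 43.1, 72.9 and 79.3 in *cfp-1*, 25.7, 16.8 and 32.6 in *set-2*, with 41.1 and 37.7 in *sin-3*. *cfp-1* replicate 1 lay just above the highest wild-type library. The log2 fold change in *cfp-1* was 1.15 (SE 0.35, edgeR adjusted p = 0.0312), lost without wild-type replicate 1 or 2 or *cfp-1* replicate 2 or 3 (adjusted p up to 0.118). The neighbour *ins-2* had values in the other direction, 574.1, 364.9 and 348.0 in wild-type against 262.6, 337.2 and 185.7 in *cfp-1*, with a log2 fold change of -0.71 (SE 0.25, edgeR adjusted p = 0.0598). That difference passed the test without a filter on low counts, with the replicate block, with DESeq2 and without *cfp-1* replicate 2 or *set-2* replicate 2, where the edgeR adjusted p was as low as 0.0299. *ins-2* was lower in *cfp-1* than in *set-2*, by -1.04 (SE 0.25, edgeR adjusted p = 0.0154).

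*ins-34*, the most abundant *ins* gene, was called in no mutant. Its normalized counts were 596.6, 586.7 and 576.2 in wild-type, 1305, 687.7 and 691.6 in *cfp-1*, 704.7, 1071 and 753.4 in *set-2*, with 758.2 and 717.0 in *sin-3*. Each mutant library was above every wild-type library, and the wild-type libraries were tightly grouped. The log2 fold changes were 0.61 (SE 0.23, edgeR adjusted p = 0.0776), 0.52 (SE 0.23, adjusted p = 0.146) and 0.33 (SE 0.26, adjusted p = 0.379). Leaving out *cfp-1* replicate 2 or *set-2* replicate 2 brought the *cfp-1* difference under the threshold, with an edgeR adjusted p as low as 0.0410, as did DESeq2. Without *cfp-1* replicate 1 the *set-2* difference passed, with an edgeR adjusted p of 0.0319. *ins-34* lies at chrIV:14106574-14107737, 23006 bp from *cfp-1* itself, and shares 82 exon bases with *nkcc-1* on the opposite strand, which had 515 to 1052 counts. How the authors' counting used the strand is not given in the sources used here.

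In *sin-3* mutants 4 of the 24 tested *nlp* genes (16.7%) were downregulated and 0 upregulated, against 12.6% of all tested genes in each direction. *nlp-68*, a predicted neuropeptide gene, had normalized counts of 57.8, 58.8 and 67.7 in wild-type, 46.9, 41.9 and 48.9 in *cfp-1*, 64.4, 55.7 and 65.1 in *set-2*, with 21.9 and 30.1 in *sin-3*. The *sin-3* libraries were the lowest, and the *cfp-1* libraries also lay below wild-type. The log2 fold change was -1.22 (SE 0.26, edgeR adjusted p = 0.00607), lost without *sin-3* replicate 1 (adjusted p up to 0.0840). *nlp-35* had 54.6, 81.5 and 72.9 in wild-type, 55.3, 70.6 and 71.7 in *cfp-1*, 102.1, 110.3 and 84.0 in *set-2*, with 34.3 and 37.7 in *sin-3*. It was lower in *sin-3* (log2 fold change -0.95, SE 0.27, edgeR adjusted p = 0.0235), lost without wild-type replicate 2 or 3 or either *sin-3* library (adjusted p up to 0.151). *set-2* and *sin-3* differed for both genes, by 1.23 for *nlp-68* (SE 0.26, edgeR adjusted p = 0.0037) and 1.45 for *nlp-35* (SE 0.27, adjusted p = 0.00208).

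*nlp-64*, another predicted neuropeptide gene, was downregulated in *set-2* and *sin-3*. Normalized counts were 125.3, 117.5 and 110.5 in wild-type, 86.3, 100.5 and 153.1 in *cfp-1*, 60.1, 62.0 and 61.3 in *set-2*, with 69.9 and 49.0 in *sin-3*. The *set-2* libraries lay within 2 normalized counts of each other, at about 1.92-fold below wild-type. The log2 fold changes were -0.94 in *set-2* (SE 0.24, edgeR adjusted p = 0.0232) and -0.995 in *sin-3* (SE 0.28, adjusted p = 0.0225). The *set-2* call was lost without wild-type replicate 2 or 3 or *set-2* replicate 1 or 3, and the *sin-3* call without wild-type replicate 1 or 2 or either *sin-3* library, with an edgeR adjusted p of up to 0.0778 and 0.208. *cfp-1* exceeded *set-2* by 0.89 (SE 0.24, edgeR adjusted p = 0.0236) and *sin-3* by 0.94 (SE 0.28, adjusted p = 0.0493).

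*nlp-24*, an opioid-like peptide gene known for a role in feeding during starvation, was downregulated in *cfp-1* and *sin-3*. It had normalized counts of 21.4, 20.9 and 16.7 in wild-type, 12.2, 8.37 and 6.51 in *cfp-1*, 30.0, 26.3 and 26.5 in *set-2*, with 9.60 and 6.60 in *sin-3*. All *set-2* libraries were above the wild-type libraries, and all *cfp-1* and *sin-3* libraries were below them. The difference between *set-2* and wild-type was not called (log2 fold change 0.49, SE 0.29, edgeR adjusted p = 0.273). The log2 fold changes were -1.10 in *cfp-1* (SE 0.34, edgeR adjusted p = 0.0332) and -1.30 in *sin-3* (SE 0.40, adjusted p = 0.0325). At these low counts both calls were lost with DESeq2, without a filter on low counts and with only the 2 strains in the fit. Each wild-type library decided the *cfp-1* call, as did *cfp-1* replicates 2 and 3 and *set-2* replicates 1 and 3, and the *sin-3* call was lost without wild-type replicate 1 or 2, *set-2* replicate 1 or either *sin-3* library, with an edgeR adjusted p of up to 0.125 and 0.244. The difference between *set-2* and *cfp-1* (log2 fold change -1.58 for *cfp-1* over *set-2*, SE 0.32, edgeR adjusted p = 0.00745) and between *set-2* and *sin-3* (1.79, SE 0.39, adjusted p = 0.00444) passed the test.

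*nlp-11* and *nlp-67* were the upregulated *nlp* genes, each in 1 mutant. *nlp-11* had normalized counts of 138.2, 158.3 and 164.6 in wild-type, 359.1, 215.3 and 238.9 in *cfp-1*, 173.4, 163.9 and 176.4 in *set-2*, with 106.9 and 145.1 in *sin-3*. The *cfp-1* libraries were above all others. The log2 fold change in *cfp-1* was 0.82 (SE 0.21, edgeR adjusted p = 0.0166), lost without wild-type replicate 1 or *cfp-1* replicate 1 (adjusted p up to 0.0584). *nlp-67* had 32.1, 36.97 and 34.4 in wild-type, 68.5, 41.9 and 54.3 in *cfp-1*, 54.9, 93.5 and 71.2 in *set-2*, with 27.4 and 33.0 in *sin-3*. Its log2 fold change was 1.08 in *set-2* (SE 0.27, edgeR adjusted p = 0.0210), lost without wild-type replicate 2 or 3 or *set-2* replicate 2 (adjusted p up to 0.077), and 0.67 in *cfp-1* (SE 0.27, adjusted p = 0.0916). In both *cfp-1* and *set-2*, every library was above the wild-type libraries for *nlp-67*.

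**Figure D5:**
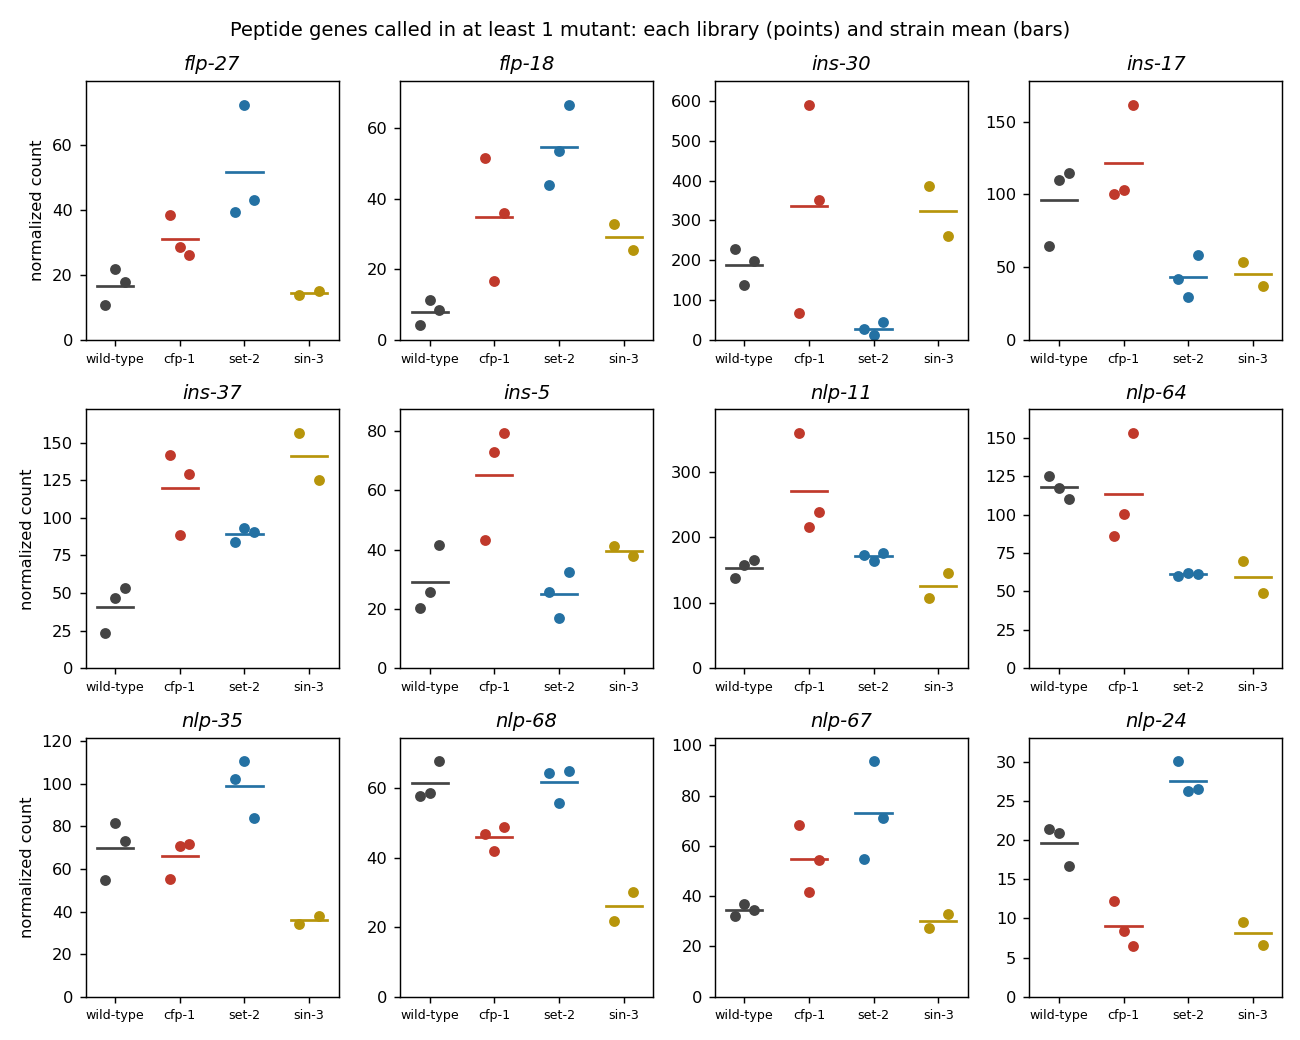
Normalized counts (y axes from 0) of the 12 peptide genes called in at least 1 mutant, with 1 point for each library and bars for the strain means. *flp-18* and *ins-37* are higher in all mutant libraries than in wild-type, *ins-30* spans 68.5 to 590.8 in *cfp-1* and 12.6 to 43.9 in *set-2*, and *nlp-68* is lowest in *sin-3*.

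The 3 most abundant *nlp* genes by level per kb of exon passed the test in no mutant. *nlp-31* had normalized counts of 1648, 1654 and 1489 in wild-type, 1247, 1455 and 1490 in *cfp-1*, 1881, 1729 and 1742 in *set-2*, with 1485 and 1203 in *sin-3*. Its log2 fold changes against wild-type were -0.19 (SE 0.11), 0.16 (SE 0.11) and -0.25 (SE 0.13), and none passed the test. *nlp-31* was lower in *cfp-1* than in *set-2* by -0.35 (SE 0.11, edgeR adjusted p = 0.0408) and higher in *set-2* than in *sin-3* by 0.41 (SE 0.13, adjusted p = 0.0231), and the libraries of these strains did not overlap. For *nlp-36* and *nlp-52* the log2 fold changes against wild-type lay between -0.20 and 0.11 and between 0.11 and 0.42.

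The mutants were also compared with each other. Between *cfp-1* and *set-2*, 8 peptide genes were higher in *cfp-1* and 3 in *set-2*, against 12.6% and 9.52% of all tested genes, so 11 in all against 22.1%. Between *cfp-1* and *sin-3*, 4 were higher in *cfp-1* (6.24% of all genes) and 0 in *sin-3* (5.34%), 4 in all against 11.6%. Between *set-2* and *sin-3*, 11 were higher in *set-2* and 3 in *sin-3*, against 19.9% and 20.7%, so 14 in all against 40.7%. *ins* genes made up 4 of the 8 tested that were higher in *cfp-1* than in *set-2*, namely *ins-5*, *ins-17*, *ins-24* and *ins-30*. Of the 20 peptide genes called between at least 1 pair of mutants, 10 had been called in no mutant against wild-type. These counts were not made over all tested genes and show nothing particular to peptide genes. *nlp-19* and *nlp-13* are examples of the 10, chosen after their values were seen. *nlp-19* had 29.2, 31.5 and 34.8 in *set-2* but 8.23 and 8.48 in *sin-3* (log2 fold change 1.91, SE 0.36, edgeR adjusted p = 0.00239). *nlp-13* had 0.86, 8.41 and 8.33 in *set-2* but 19.2 and 31.1 in *sin-3* (-2.11, SE 0.55, edgeR adjusted p = 0.0114).

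Some peptide genes below the filter had more than 3 counts in every library of a mutant and in no wild-type library. Of the 66 genes that no wild-type library showed with more than 3 counts, 2 had more in every *cfp-1* library, 4 in every *set-2* library and 1 in every *sin-3* library, beside 3.55%, 5.10% and 3.72% of 5997 genes that met the same limit in wild-type. As shares of the 66, these lie near the all-gene shares in *cfp-1* and *set-2* and below it in *sin-3*. They therefore show nothing particular to peptide genes. *ins-1*, which encodes an insulin-like peptide, had 0 to 2 counts in wild-type, 5, 6 and 10 in *cfp-1*, and the *set-2* libraries had 17, 17 and 15, so that it was at least 2.47-fold and at least 4.77-fold higher against a floor of 3 counts for each wild-type library. *flp-20* had 2 to 3 counts in wild-type, 8 to 16 in *cfp-1* and 11 to 21 in *set-2*, at least 3.86-fold and at least 4.02-fold higher. *flp-8* (at least 3.12-fold) and *nlp-1* (at least 2.01-fold) passed the limit in *set-2*, and *nlp-70* (at least 1.89-fold) in *sin-3*. No test was made, and these genes were chosen by their values.

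The genes that process and release peptides were then examined. Of 15 listed genes for processing and release, 14 were tested, and none was upregulated and 4 were downregulated in *cfp-1*, 1 and 3 in *set-2*, with 0 and 4 in *sin-3*. Beside these stand 12.7% higher and 11.4% lower of all tested genes for *cfp-1*, 7.40% and 7.04% for *set-2*, and 12.6% each way for *sin-3*. The median log2 fold change of the 14 was -0.11, 0.10 and -0.40. *pamn-1*, which encodes the peptide-amidating enzyme, was lower in all 3 mutants, at 948.0 normalized counts ± 49.8 in wild-type against 380.2 ± 34.5 for *cfp-1*, 633.2 ± 24.3 for *set-2* (SD, n = 3 each) and 512.6 ± 81.2 in *sin-3* (n = 2). Its log2 fold changes were -1.32 (SE 0.13, edgeR adjusted p = 6.11e-05), -0.58 (SE 0.12, adjusted p = 0.0103) and -0.88 (SE 0.14, adjusted p = 0.0016). The carboxypeptidase D gene *cpd-1* fell by 0.70, 0.51 and 0.43 on the log2 scale and the proprotein convertase gene *kpc-1* by 0.67, 0.44 and 0.54, and each of these passed the test. These genes were named because they were called in the most mutants, so they do not stand for the list. Counts of *egl-3*, also listed, were 152, 176 and 159 in wild-type before scaling. They were 212, 192 and 192 in *cfp-1*, 216, 312 and 254 in *set-2*, with 98 and 127 in *sin-3*.

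Of the listed neuropeptide receptor genes, 46 were tested, with 8 upregulated and 1 downregulated in *cfp-1*, 4 and 0 in *set-2*, with 9 and 0 in *sin-3*, beside the same all-gene shares of 12.7% and 11.4%, 7.40% and 7.04%, and 12.6% each way. Their median log2 fold changes were 0.51, 0.14 and 0.35. *ntr-1*, the receptor of the vasopressin- and oxytocin-like peptide nematocin, was upregulated in all 3, by 1.61 (SE 0.45), 1.56 (SE 0.45) and 1.84 (SE 0.49), from 6.50 normalized counts in wild-type to 20.1, 19.4 and 23.99. *ntr-1*, *ckr-2* and the ligand gene *daf-7* also had wild-type means under the filter of 10 and entered the test through the mutant libraries. *ckr-2*, a cholecystokinin-type receptor gene, rose by 1.60 in *cfp-1* and by 2.42 in *set-2*, while *npr-37*, a predicted neuropeptide receptor gene, rose by 0.86 in *cfp-1* and 0.71 in *sin-3*. Of 21 neuronal markers, 17 were tested. *egl-3*, *egl-21*, *unc-31* and *ida-1* are also in the list for processing and release, so these lists are not independent. The numbers higher and lower were 3 and 2 in *cfp-1*, 4 and 0 in *set-2*, with 2 and 1 in *sin-3*. The same all-gene shares stand beside these counts. The median log2 fold changes of the 17 were 0.16, 0.35 and 0.04. The summed level of the 21 was 396 to 453 CPM in wild-type, 441 to 486 in *cfp-1*, 416 to 428 in *set-2* and 415 to 425 in *sin-3*. That sum mostly follows *snb-1*, at 5868 to 9810 counts, where the next marker, *unc-119*, had at most 2608. It therefore says little about the other markers. None of the 21 was at 0 in every library of a strain, and the part of neuronal content in the peptide gene results was not tested.

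Downstream of the INS peptides, 14 of 15 insulin signalling genes were tested, with 0 upregulated and 1 downregulated in *cfp-1*, 0 and 2 in *set-2*, with 5 and 1 in *sin-3*, where 12.7% and 11.4%, 7.40% and 7.04%, and 12.6% each way of all tested genes were called. Their median log2 fold changes were 0.01, -0.24 and 0.40. The insulin receptor gene *daf-2* fell by 0.67 in *set-2* (SE 0.15, edgeR adjusted p = 0.0140) and rose by 0.50 in *sin-3* (SE 0.17, adjusted p = 0.0458), with normalized counts of 5905 ± 1049.8 in wild-type, 3721 ± 412 in *set-2* and 8353 ± 1799 in *sin-3*. The receptor substrate gene *ist-1* fell by 0.66 in *cfp-1* and by 0.82 in *sin-3*, and the kinase gene *pdk-1* rose by 0.69 in *sin-3*. Among 52 genes for other secreted peptides only 2 reached the filter. *daf-7*, a TGF-beta ligand of the dauer pathway, rose by 2.95 in *set-2* (SE 0.46, edgeR adjusted p = 0.00258), from 9.68 normalized counts ± 5.59 to 75.4 ± 35.3 (SD, n = 3 each). *cnc-10*, a gene of the caenacin antimicrobial family, fell by 0.52 in *sin-3* (SE 0.18, edgeR adjusted p = 0.0474).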

How the data were processed

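Polyadenylated RNA of 11 early embryo libraries was sequenced with a stranded protocol. The authors mapped reads with STAR 2.4.1d, processed alignments with SAMtools 0.1.19, counted reads for each gene with HTSeq 0.7.2 on the WS254 release and deposited the counts without normalization, 1 column for each library. They also deposited, for each mutant, DESeq2 fold changes and p-values, which were not used. The strand setting of the counting is not given in the sources used here.

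Symbols, exon lengths, positions and biotypes came from Ensembl release 115 (WBcel235), which gave 43767 identifiers a symbol. Another 6 rows carry a matching symbol only in RefSeq. Peptide genes, gene lists and the rule for named genes (genes called in at least 1 mutant, the top 3 of each class by level and up to 3 genes of each list) were chosen with earlier results of these data known. The 11547 protein-coding genes whose TMM-normalized count averaged above 10 were fitted as 1 model over the 4 strains in R 4.3.3 with edgeR 4.0.16 and tested by its quasi-likelihood test; genes were called at a Benjamini-Hochberg p under 0.05, adjusted over all of them. CPM are counts per library total of the tested genes, corrected by TMM. The SE is the log2 fold change divided by the square root of F. The script was tested on simulated data. Alternatives were DESeq2 1.42.0, other scalings and filters, replicate blocks, fits of 2 strains and leaving out each library. Correlations of deviations from the strain means ran from -0.43 to 0.45 over 15 pairs of libraries with the same replicate number. Over the 6 pairs with the same number in the title, they ran from -0.39 to 0.32. Deviations from means of so few libraries depend on each other, so these ranges do not decide whether libraries were paired.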

Additional observations from a re-analysis of the deposited data

How the results depend on the processing

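The counts of called peptide genes rest on small numbers and shift with the processing. Among the 19 calls against wild-type, 5 held without each library in turn (*flp-18* in *cfp-1* and *set-2*, *flp-27* in *set-2*, *ins-37* in *cfp-1* and *sin-3*) and 14 were lost without at least 1. These fits kept the genes chosen over all 11 libraries, so they do not test that choice. *flp-18* had passed the filter only through its mutant libraries. No direction of a named peptide gene that was called reversed. For the named genes of the other lists, such as *daf-2* and *cnc-10*, calls and directions were not followed over these alternatives. Leaving out each library in turn, the number of genes higher in *cfp-1* ran from 3 to 7 and lower from 0 to 2, in *set-2* from 2 to 6 and from 0 to 3, in *sin-3* from 1 to 4 and from 0 to 5, between *cfp-1* and *set-2* from 2 to 11, between *cfp-1* and *sin-3* from 0 to 6, and between *set-2* and *sin-3* from 8 to 16. Detected genes ran from 68 to 72 in wild-type, 79 to 86 in *cfp-1*, 84 to 87 in *set-2* and 55 to 64 in *sin-3*. Summed levels ran, with wild-type first and then *cfp-1*, *set-2* and *sin-3* in turn, from 10.7 to 12.0, 13.6 to 14.2, 14.9 to 16.2 and 10.5 to 10.7 CPM (*flp*), from 116.6 to 124.7, 118.0 to 122.4, 130.9 to 134.2 and 102.0 to 115.1 (*nlp*), and from 49.3 to 53.4, 67.6 to 73.5, 54.8 to 64.1 and 57.0 to 65.9 (*ins*). With filterByExpr, 7 genes were higher in *cfp-1*. Without a filter, 8 were higher in *cfp-1* and 8 in *set-2*. With only the 2 strains compared in the fit, 0 were lower in *cfp-1*, 4 higher in *sin-3* and 5 called between *cfp-1* and *set-2*. Upper-quartile scaling, chosen after seeing the data, gave 7 calls between *cfp-1* and *sin-3*. With the replicate block, 2 genes were lower in *cfp-1* and no other count moved by over 1.5 times. With a replicate block by the number in the title, every comparison gave 0 calls, in a fit with few residual degrees of freedom. Beside the limit of 3 counts, at least 10 counts were reached by 45 genes in wild-type, 57 in *cfp-1* and 37 in *sin-3*, and at least 1 count by 107 in *sin-3*. With DESeq2's size factors, the *flp* sum of *sin-3* was 10.7 CPM. Causes of these shifts were not tested.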
